A study of Anguilla anguilla with 24 samples.

Results

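The nuclear-encoded subunits of oxidative phosphorylation were followed in the brain and liver of European eels (Anguilla anguilla) by RNA sequencing. Members were the contigs, that is the assembled transcript sequences on which reads were counted, whose label names a subunit of respiratory complex I (ndufa, ndufb, ndufc, ndufs or ndufv with a digit), II (sdha to sdhd), III (uqcr or cyc1), IV (COX4 to COX8 followed by a letter) or V (atp5, ATPA or ATPB). The rule used names only and chose 93 of 50640 contigs under 45 labels. Complex I held 37 contigs of 22 labels, complex II 4 contigs of 4 labels, complex IV 4 contigs of the single label COX6A, and complex V, the ATP synthase, 39 contigs of 12 labels. No contig matched a complex III name, so that complex was not analysed here. A further 6 contigs of 3 labels were complex II assembly factors (sdhaf1, sdhaf2 and Sdhaf4), and 3 contigs matched by name without being established subunits: ndufa4l2, a paralogue of NDUFA4, and atp5s and atp5sl.

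Oxidative phosphorylation takes place in the inner mitochondrial membrane. Complexes I and II pass electrons from NADH and succinate to ubiquinone, complexes III and IV pass them on through cytochrome c to oxygen, and complex V uses the proton gradient so built to make ATP. Most subunits are encoded in the nucleus and imported, while a small core of the membrane proteins is encoded in mitochondrial DNA. Both tissues depend on this system, neurons for the ion pumping behind electrical signalling and hepatocytes for biosynthesis and the oxidation of fatty and amino acids.

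The 12 eels fell into 4 groups of 6 libraries, each eel giving a brain and a liver library. Eels 1 to 6 were controls without gold nanoparticles, and eels 7 to 12 took in gold nanoparticles with their food over 21 days; their age, sex and tank and the dose are not stated in what was available here. The question put to these groups is whether transcript levels in brain or liver differ after such feeding. Within a group each replicate is another animal, and the tests compare groups against the variation among animals. Brain and liver libraries come from the same eels, and the main tests between tissues and of the interaction do not use this pairing. A paired fit with the eel as replicate block is given as an alternative.

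Libraries held 50.3 to 116 M counted reads (M, 10 to the power 6), and the gold-fed brains were sequenced more deeply (mean 96.6 M) than the control brains (77.8 M). Levels are CPM (counts per M reads, scaled by the TMM method, which aligns the bulk of contigs between libraries), a unit that does not correct for contig length, so that different contigs are not compared in level. Tissue labels went with their summed markers. The level of 31 hepatocyte contigs was 57050 to 98980 CPM in the livers against 48.8 to 438 in the brains (the highest in control eel 3, then 124 in gold-fed eel 10). That of 26 neuronal contigs was 1091 to 1692 CPM in the brains against 49.6 to 67.6 in the livers. Single contigs went the other way: in control eels 1 of 31 hepatocyte contigs was called higher in brain and 2 of 25 tested neuronal contigs higher in liver. No contig matched the lists of striated or smooth muscle markers. In bulk tissue, fewer cells of a type and less RNA per cell cannot be told apart.

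With TMM scaling, most subunit transcripts were higher in liver than in brain. In the control eels, 72 of 92 tested members were higher in liver and 1 was higher in brain (edgeR quasi-likelihood test, adjusted p under 0.05), where 34.9% of all tested contigs were higher in liver and 40.1% higher in brain. In the gold-fed eels, which share no library with the controls, 75 of 93 were higher in liver and 1 higher in brain, beside 33.3% and 39.7% of all contigs. The sign of these counts depended on the scaling: with library totals alone, 16 members were higher and 49 lower in liver in control eels, and 19 higher and 48 lower in gold-fed eels. With that scaling the median contig itself moved towards brain, and the share of all contigs called is not given here. The counts with library totals are therefore not read as particular to the members. As a share of all reads the members together did not separate the tissues: they took 0.25 to 0.275% of a control brain library and 0.162 to 0.367% of a control liver library, and 0.246 to 0.263% and 0.199 to 0.299% in gold-fed eels. Relative to the median contig, the median member lay 1.60 (log2) higher in liver in control eels and 1.496 higher in gold-fed eels. This relative value is nearly free of the scaling by construction, since a change of scaling moves all contigs nearly alike.

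The change of scaling moved the liver to brain log2 fold change of the median contig by -2.15 in control and by -2.01 in gold-fed eels. Beside this, the 10 contigs with the most reads took 11.3 to 16.7% of the reads of a liver library against 6.44 to 8.42% of a brain library. Log2 fold changes of single contigs below are TMM-scaled values, for which the median contig stood at -0.11 in control and -0.12 in gold-fed eels; medians of groups are given relative to it. On that relative measure 89 of 92 members lay above the median contig in control eels and 89 of 93 in gold-fed eels.

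The complexes did not shift alike. Relative to the median contig, the median log2 difference in control eels was 4.54 for the 4 COX6A contigs, 2.60 for complex V, 1.98 for the complex II assembly factors, 0.98 for complex I and 0.84 for complex II. The same order held in gold-fed eels, with 4.57, 2.45, 1.73, 1.03 and 0.70. With library totals in control eels, all 4 COX6A contigs stayed higher in liver. Complex V split into 25 higher and 14 lower, and complex I turned to 2 higher and 35 lower. The median contig itself moved by -2.15 with that scaling, and the share of all contigs by sign is not given here. Counts by sign with library totals, here and below, are therefore not read as particular to a complex. A measure within each library, the mean log2(CPM + 0.5) of the complex V contigs minus that of the complex I contigs, was 0.17 to 0.38 in control brain, 0.23 to 0.30 in gold-fed brain, 1.05 to 1.51 in control liver and 1.08 to 1.48 in gold-fed liver. The 12 livers lay above the 12 brains without overlap.

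**Figure D1:**
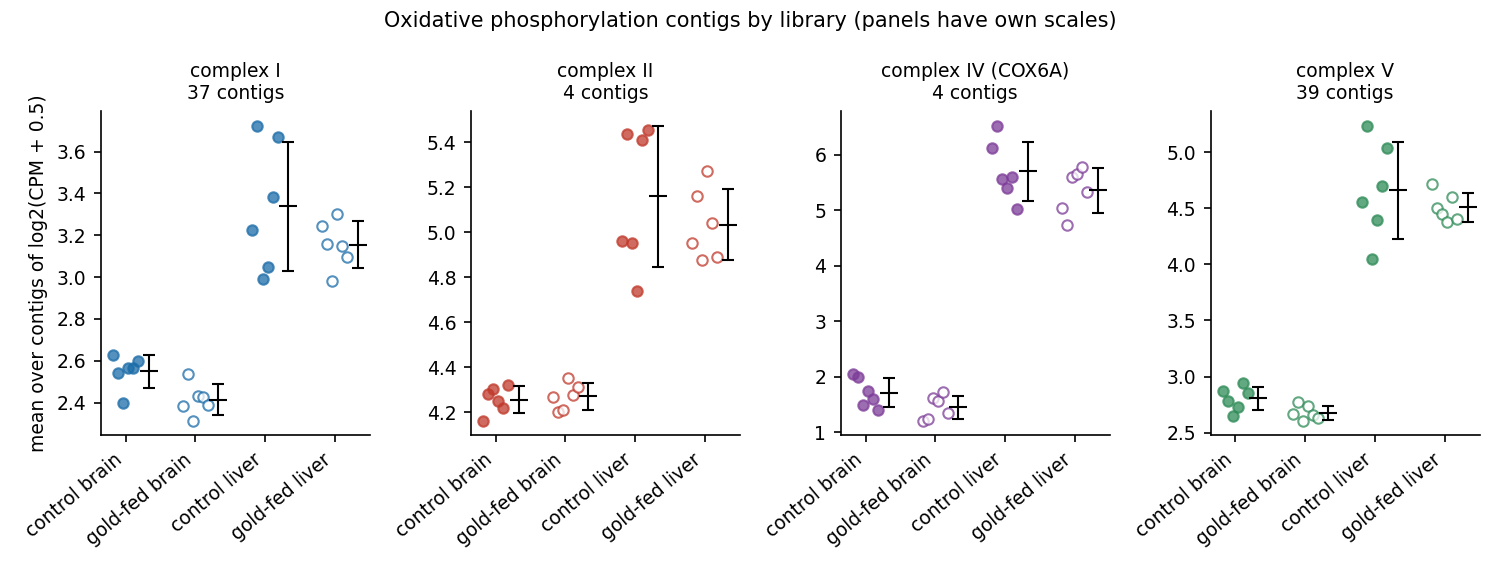
Mean log2(CPM + 0.5) over the contigs of complexes I, II, IV and V in each library (points: filled for control, open for gold-fed eels; bar and whiskers: mean and SD of 6 eels; each panel has its own scale, TMM scaling). Livers lie above brains in all 4 panels. The gap is widest in the complex IV panel, which holds the label COX6A alone (control brain 1.71 ± 0.27, control liver 5.71 ± 0.53). With library totals the direction of complexes I and II turns.

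Complex V was taken by its parts. The F1 part, which makes ATP in the matrix, had 10 of 11 contigs called higher in liver in both sets of eels under TMM. Beside this, 34.9% of all contigs were called higher in liver in control and 33.3% in gold-fed eels. With library totals 10 of 11 also had a positive fold change. ATPB.1.2, the main contig of the catalytic beta subunit, ranged from 298 to 333 CPM (median 309) in control brain and from 937 to 3004 CPM (median 2108) in control liver. In gold-fed eels it ranged from 302 to 339 CPM (median 318) in brain and from 1059 to 2246 CPM (median 1798) in liver. Every liver lay above every brain. The share of all contigs that separate in this way is not given here. Such separations, here and below, are therefore not read as particular to the members. The log2 fold change of ATPB.1.2 was 2.76 ± 0.25 (SE, edgeR adjusted p = 1.45e-07) in control and 2.44 ± 0.19 (edgeR adjusted p = 6.75e-08) in gold-fed eels.

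ATPA is by its name the alpha subunit, which alternates with beta in the catalytic ring; whether this contig carries the main alpha transcript was not tested. It had few reads, 31 to 93 per library. Its levels were 0.27 to 0.56 CPM (median 0.44) in control brain and 1.33 to 2.73 CPM (median 2.25) in control liver, again without overlap. The log2 fold change was 2.33 ± 0.25 in control eels (adjusted p = 1.1e-06) and 3.096 ± 0.32 in gold-fed eels (adjusted p = 1.0e-06). With library totals the control value was 0.16 and was no longer called. The second ATPB contig, ATPB.2.2, held under 1% of the label's level in control brain and was called in neither set of eels (log2 fold change 0.25 and 0.31).

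The central stalk turns inside the ring and drives the catalytic sites through their cycle. The gamma subunit label atp5c1 had all 5 contigs called higher in liver, with log2 fold changes of 2.64 to 4.32 in control eels. The delta subunit contigs atp5d.1.2 and atp5d.2.2 were at 2.56 and 2.74, and the epsilon subunit atp5e at 2.49. Among contigs of different labels in complex V, atp5c1.4.5 and ATPB.1.2 were also the most alike pair, with r = 0.96 over the deviations of 24 libraries from their group means, a description in which both values of a point come from 1 library.

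The membrane part of the enzyme was represented by subunits e, f and g, which sit where ATP synthase dimers meet. All 17 contigs were called higher in liver in both sets of eels, beside 34.9% of all contigs in control and 33.3% in gold-fed eels. The 17 share labels and libraries, so they are not 17 separate observations. For atp5i.3.4, control liver 4 stood at 19.5 CPM (others 0.53 to 2.02) and gold-fed liver 10 at 17.6 CPM (others 0.23 to 1.19). Its brains ranged from 0.29 to 2.22 CPM. With library totals 12 of the 17 stayed positive in control and 11 in gold-fed eels. atp5i.2.4 (subunit e) ranged from 3.99 to 7.45 CPM (median 5.38) in control brain and from 18.1 to 91.8 CPM (median 64.7) in control liver, and its log2 fold change was 3.38 ± 0.37 (adjusted p = 1.2e-06). Subunit f contigs atp5j2.3.5 and atp5j2.5.5 reached 3.22 ± 0.25 and 3.18 ± 0.23 in control eels and 3.26 ± 0.17 and 3.28 ± 0.17 in gold-fed eels. The 6 contigs of subunit g (atp5l) lay between 1.75 and 2.58 in control eels. No liver of either group overlapped the brains for atp5i.2.4, atp5j2.3.5 and atp5j2.5.5, which is not read as particular to them. These 3 contigs kept their direction with library totals.

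The peripheral stalk, which holds the F1 part still against the turning stalk, was divided. Subunit d (atp5h) ranged from 26.2 to 30.6 CPM (median 27.7) in control brain and from 149 to 399 CPM (median 204) in control liver, with a log2 fold change of 3.04 ± 0.22 (adjusted p = 2.0e-08), and subunit b contigs atp5f1.1.3 and atp5f1.2.3 had log2 fold changes of 2.10 and 2.63, of which the first turned with library totals (-0.09). Coupling factor 6 (atp5j), the label with the most copies, differed from them. Of its 7 contigs, atp5j.1.7 and atp5j.3.7 were called (log2 fold change 1.53 ± 0.19 and 0.65 ± 0.17 in control eels) and the other 5 were not, with values from -0.20 to 0.42; with library totals all 7 were negative. Summed over its copies, atp5j was at 57.2 to 80.0 CPM in control brain and 55.4 to 102 CPM in control liver. These ranges overlap, and the summed label had a log2 fold change of 0.27 in both sets of eels (adjusted p = 0.145 in control and 0.0217 in gold-fed eels).

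**Figure D2:**
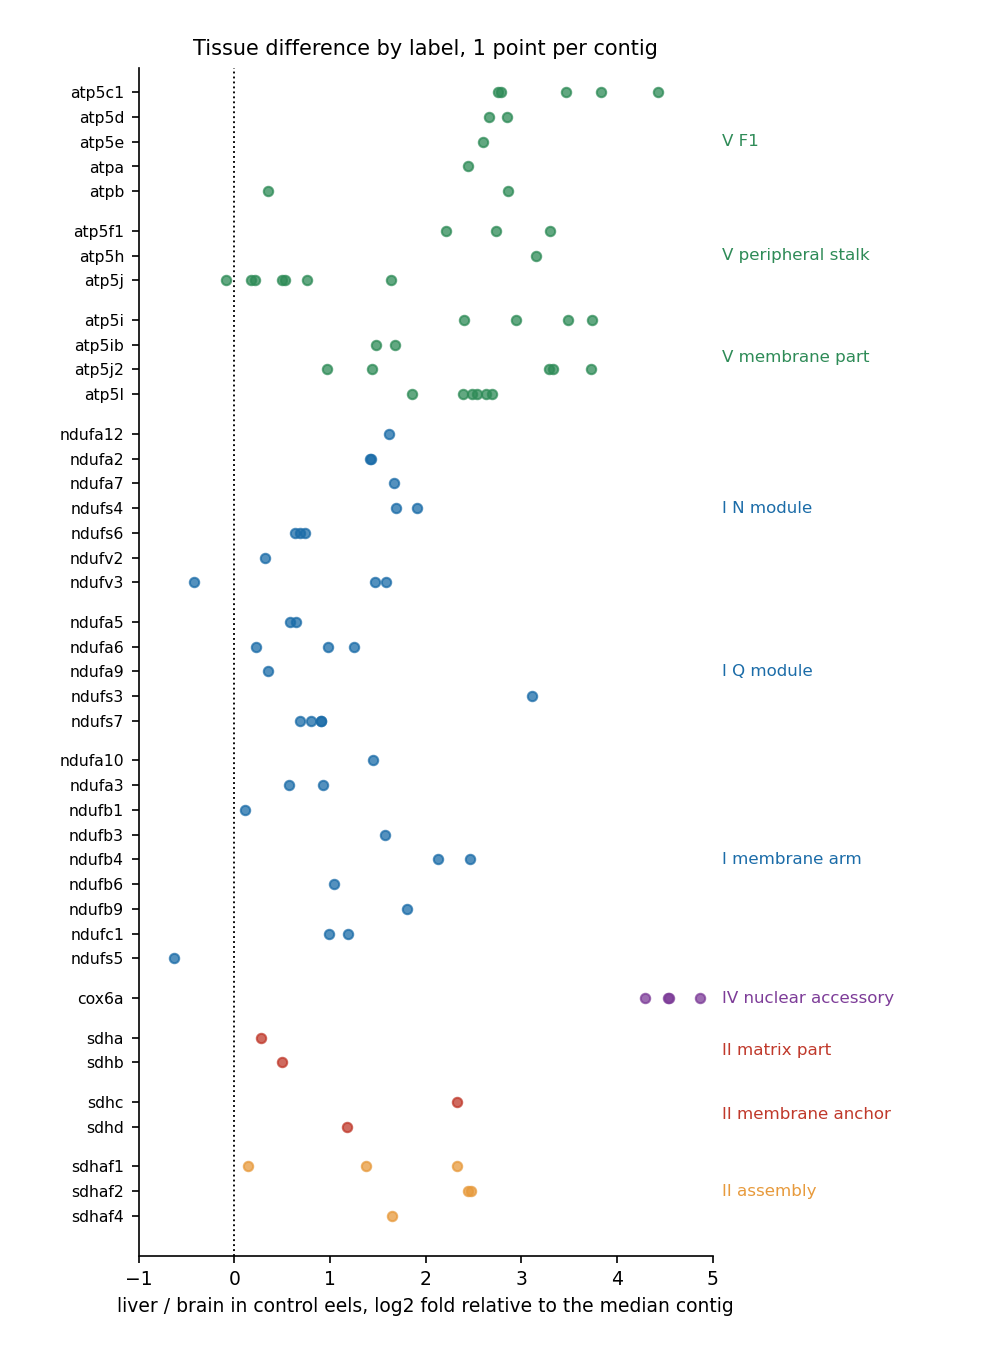
Liver to brain log2 fold change in control eels relative to the median contig (x axis, 0 marks the median contig), by label (y axis) and grouped by complex and module; each point is 1 contig and not every label is shown. COX6A lies from 4.29 to 4.87, most ATP synthase labels between 2 and 4, atp5j nearer to 0, and most complex I labels between 0 and 2, with ndufs3 at 3.11 and ndufs5 at -0.63.

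Complex I lay closer to the median contig than complex V. In control eels 26 of 37 contigs were called higher in liver and 1 higher in brain, and in gold-fed eels 29 and 1. Over all contigs these shares were 34.9% and 40.1% in control and 33.3% and 39.7% in gold-fed eels. These directions belong to TMM scaling. With library totals, which moved the median contig itself by -2.15, 31 contigs were called lower in liver in control eels and 1 higher. The share of all contigs called with that scaling is not given here, so this count is not read as particular to complex I. By module, the median relative to the median contig in control eels was 1.43 in the N module, which oxidises NADH, 1.12 in the membrane arm, which pumps protons, and 0.84 in the Q module, which reduces ubiquinone.

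A single core subunit of the Q module stood out among these. ndufs3 ranged from 15.1 to 19.4 CPM (median 16.6) in control brain and from 99.9 to 178 CPM (median 131) in control liver. In gold-fed eels it ranged from 15.6 to 18.4 CPM in brain and from 101 to 127 CPM in liver. The tissues did not overlap, the log2 fold change was 3.00 ± 0.17 (adjusted p = 1.3e-09) and 2.76 ± 0.11 (adjusted p = 9.4e-11), and it kept its direction with library totals (0.82 and 0.74). It was chosen for mention after its values were seen.

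Other core subunits of complex I were closer to the median contig. The 4 contigs of ndufs7, a Q module subunit that carries the last iron-sulfur cluster before ubiquinone, had log2 fold changes of 0.58 to 0.80 in control eels under TMM and of -1.60 to -1.38 with library totals. ndufv2, an iron-sulfur subunit of the N module, was called in neither set of eels (0.21 ± 0.19 and -0.03 ± 0.12).

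In the opposite direction, ndufs5, an accessory subunit on the intermembrane side of the membrane arm, was the only member called higher in brain in both sets of eels. It ranged from 25.5 to 54.5 CPM (median 40.3) in control brain and from 14.4 to 31.1 CPM (median 24.8) in control liver, which overlap. In gold-fed eels it ranged from 25.9 to 51.1 CPM (median 45.8) in brain and from 15.1 to 24.2 CPM (median 17.5) in liver, which do not. Its log2 fold change was -0.74 ± 0.23 (adjusted p = 0.00884) and -1.20 ± 0.19 (adjusted p = 5.1e-05), and its direction was the same with library totals. Other accessory subunits of complex I were called in the opposite direction under TMM, among them ndufb4.1.2 (2.02 ± 0.34 in control eels) and ndufs4.2.2 (1.80 ± 0.33), whose control values turned to -0.17 and -0.36 with library totals.

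The COX6A contigs, the only complex IV members, had the highest median of the complexes. COX6A is a nuclear accessory subunit of cytochrome c oxidase that in mammals exists as a broadly expressed and a heart and muscle form; which form these contigs encode is not given by the label. COX6A.2.4, which held 75.3% of the label's level in control brain and 70.4% in control liver, ranged from 11.3 to 19.8 CPM (median 15.1) in control brain and from 191 to 402 CPM (median 274) in control liver. In gold-fed eels it ranged from 10.8 to 14.4 CPM (median 13.6) in brain and from 192 to 343 CPM (median 248) in liver. Every liver lay above every brain.

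Its log2 fold change was 4.18 ± 0.22 (adjusted p = 6.6e-10) in control and 4.27 ± 0.17 (adjusted p = 7.9e-11) in gold-fed eels. The copies COX6A.1.4, COX6A.3.4 and COX6A.4.4 had 4.76 ± 0.71, 4.42 ± 0.24 and 4.43 ± 0.71 in control eels, and in gold-fed eels the 4 copies lay between 4.27 and 4.68. All 4 were called in both sets of eels. For 3 of them every liver lay above every brain, and COX6A.4.4 overlapped, with a lowest liver of 1.36 CPM and a highest brain of 2.67 CPM. The share of all contigs whose livers and brains separate in this way is not given here, so the separation is not read as particular to COX6A. With library totals their fold changes stayed between 2.00 and 2.72.

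Complex II, which is also an enzyme of the citric acid cycle, was divided between its matrix and its membrane subunits. SDHA, the flavoprotein that oxidises succinate, ranged from 48.6 to 61.6 CPM (median 52.9) in control brain and from 46.0 to 79.01 CPM (median 59.7) in control liver. SDHB, the iron-sulfur subunit, ranged from 12.6 to 17.98 CPM (median 16.7) in control brain and from 11.2 to 31.9 CPM (median 20.2) in control liver. The tissues overlapped for both, and neither was called under TMM: the log2 fold changes were 0.17 ± 0.14 and 0.22 ± 0.14 for SDHA and 0.39 ± 0.21 and -0.09 ± 0.13 for SDHB, in control and gold-fed eels. With library totals both were lower in liver, by -2.01 and -1.81 in control eels.

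The membrane anchors that hold the ubiquinone site were called. sdhc ranged from 13.2 to 15.4 CPM in control brain and from 49.6 to 88.0 CPM in control liver, without overlap, with a log2 fold change of 2.22 ± 0.15 (adjusted p = 8.1e-09). SDHD had 1.07 ± 0.16 (adjusted p = 3.9e-05), a direction that turned with library totals (-1.11). Of the assembly factors, both contigs of sdhaf2, which helps attach the flavin to SDHA, were called (2.36 ± 0.19 and 2.34 ± 0.39), as were Sdhaf4 (1.53 ± 0.35) and 2 of the 3 contigs of sdhaf1, which protects the iron-sulfur clusters of SDHB. The exception, sdhaf1.2.3, had 0.04 ± 0.30. With library totals both sdhaf2 contigs stayed above 0 in control eels (0.19 and 0.14) and Sdhaf4 turned to -0.61.

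Of the contigs that matched by name only, atp5s (0.96 ± 0.25) and atp5sl (0.71 ± 0.21) were called higher in liver under TMM in control eels and turned to -1.24 and -1.45 with library totals. ndufa4l2 was near the detection limit, at 0 to 0.51 CPM in control brain and 0.06 to 1.71 CPM in control liver, and did not pass the filter on low counts among control eels. In gold-fed eels its log2 fold change was 1.77 ± 0.94 (adjusted p = 0.105). In the paired fit with the eel as replicate block it was 2.30 and was called (adjusted p = 0.00937).

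**Figure D3:**
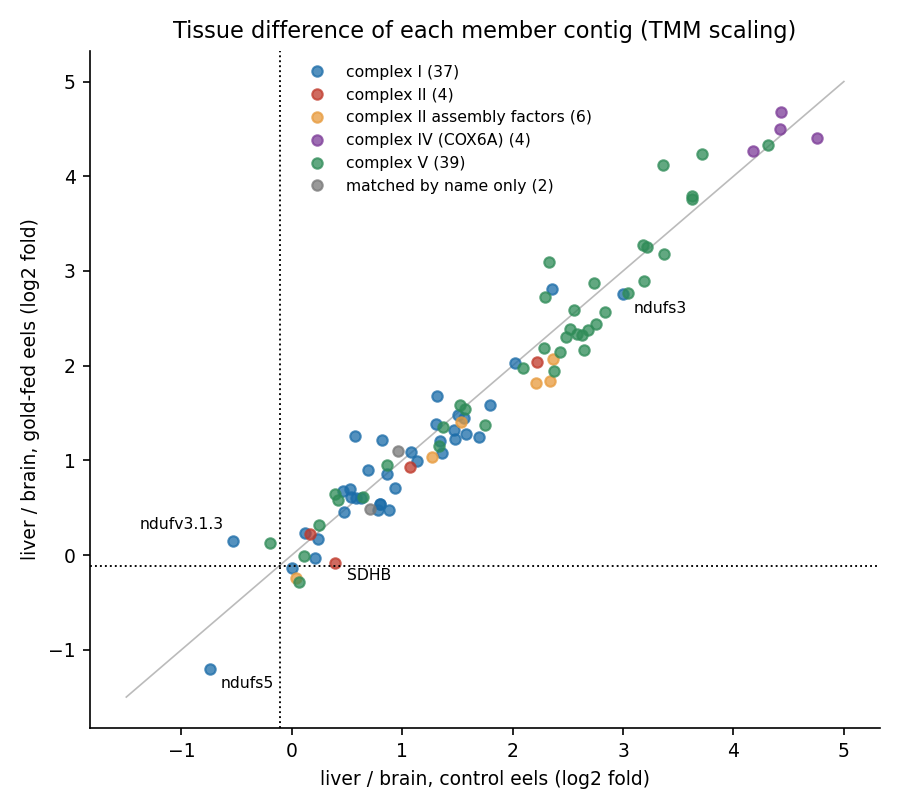
Liver to brain log2 fold change of each member in control eels (x axis) and in gold-fed eels (y axis), TMM scaling, coloured by complex; the grey line marks equal values and the dotted lines the median contig of each comparison. The axes share no library. Of 92 members tested in both, 84 have the same sign, 71 are called higher in liver in both, and ndufs5 is the 1 called higher in brain in both; with library totals most complex I and II points move below 0.

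Copies of a label did not always keep their proportions between tissues. Within atp5j2, the copy atp5j2.2.5 held 38.1% ± 3.2 (SD, n = 6) of the label's level in control brain and 16.1% ± 1.2 in control liver, while atp5j2.5.5 held 42.3% ± 3.6 and 62.9% ± 1.9. The shares of atp5j2.2.5 ran from 32.6 to 41.1% in the brains and from 14.6 to 18.2% in the livers of control eels, with no overlap. In gold-fed eels they were 41.0% ± 1.6 and 15.1% ± 1.8. By contrast the 4 COX6A copies kept similar mean shares in both tissues, and for atp5l the copy atp5l.1.6 held 18.1% in control brain and 20.3% in control liver. Shares within a library do not depend on the scaling. Reads of near-identical copies may be split between contigs by the counting, so the level of a single copy is uncertain. Summed by label, 37 of 44 labels were called higher in liver in control eels and 38 of 45 in gold-fed eels. The share of all summed labels called is not given here, so these counts are not read as particular to the members.

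Other parts of the mitochondrial system were described for comparison under TMM. The 4 contigs of the list of mitochondrially encoded subunits by gene symbol were called higher in liver in control eels: COX1 (2.08 ± 0.37), COX2 (2.47 ± 0.25), ND4 (1.76 ± 0.15) and ND5 (2.15 ± 0.22). NU5M, whose name is the protein entry name of the same ND5 subunit, is outside that list and was not called (0.33 ± 0.62). In the citric acid cycle and pyruvate entry list, 19 of 22 contigs were called higher in liver and 2 lower. Over all contigs tested in control eels, 34.9% were called higher in liver and 40.1% higher in brain. suclg2, the GTP-specific subunit of succinyl-CoA ligase, had 6.06 ± 0.30, the mitochondrial malate dehydrogenase mdh2 had 2.73 ± 0.22 and the pyruvate carrier mpc1.1.3 had 3.49 ± 0.27. The 2 contigs higher in brain were those of idh3b, a subunit of NAD-dependent isocitrate dehydrogenase (-1.73 ± 0.18 and -0.99 ± 0.14). The medians of these lists relative to the median contig were 2.23 for the 4 mitochondrially encoded contigs and 2.26 for the cycle. They lie between those of complex I and the COX6A contigs and below that of complex V.

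Gold exposure was followed by no called change in any member in liver. Over 92 tested members edgeR called 0 at an adjusted p under 0.05, as it did for 0% of all contigs, and DESeq2 called 0 members, beside 0.711% of all contigs. At an unadjusted p under 0.05, 1 member was higher and 4 were lower in gold-fed livers, where 4.41% of all contigs were higher and 4% lower. By sign alone 75 of 92 members had a lower level in gold-fed liver (47.9% of all contigs), with a median log2 fold change of -0.21 against 0.02 over all contigs. Without control liver 2 the median relative to the median contig moved from -0.22 to -0.10. The 4 members lower at an unadjusted p under 0.05 became 12 when control liver 3 was left out (4.32% of all contigs lower at that p). They were 10 without control liver 4 (4.2%) and 8 without the liver of gold-fed eel 10 (4.06%). They were 2 without control liver 2 (3.39%), control liver 6 (3.63%) or the liver of gold-fed eel 9 (4.26%).

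COX6A.1.4 had the smallest p of the lower values in liver. Its levels were 14.3 to 160 CPM (median 30.1) in control liver and 11.0 to 25.2 CPM (median 16.97) in gold-fed liver. The groups overlapped, the log2 fold change was -1.53 ± 0.52 (edgeR adjusted p = 0.473), and it was -0.76 without the liver of control eel 1. atp5ib.2.2, by its name a second form of subunit e, was at 30.3 to 46.7 CPM (median 41.9) against 22.8 to 33.2 CPM (median 30.04), with -0.45 ± 0.16 (adjusted p = 0.486).

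ndufb4.2.2 (-1.86 ± 0.77), ndufc1.1.2 (-0.65 ± 0.27) and atp5i.4.4 (-1.02 ± 0.48) completed the 5 lower values of smallest p, and the groups overlapped for each of them. Without control liver 2 the values of ndufb4.2.2 and atp5i.4.4 were -1.11 and -0.65. On the higher side, atp5f1.3.3 was at 0.47 to 4.18 CPM (median 1.95) in control and 0.48 to 18.98 CPM (median 6.63) in gold-fed liver, with 1.97 ± 0.90 (adjusted p = 0.584). The others of smallest p on that side were ndufv3.1.3 (0.84 ± 0.48), atp5c1.1.5 (0.55 ± 0.55), atp5j.5.7 (0.29 ± 0.30) and atp5j.2.7 (0.18 ± 0.16), whose adjusted p-values were 0.67 to 0.832. Each rested in part on 1 library: without the liver of gold-fed eel 12 atp5c1.1.5 turned to -0.12, without that of gold-fed eel 10 ndufv3.1.3 was 0.25, and without that of gold-fed eel 11 atp5j.5.7 was 0.12 and atp5j.2.7 was 0.09.

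The core members in liver had SE of 0.18 to 0.29, and some members named above had wider SE. ATPB.1.2 had -0.24 ± 0.28 (SE), SDHA 0.10 ± 0.18, SDHB -0.44 ± 0.22 and ATPA 0.05 ± 0.29. None was called, and a p above the threshold does not show that the groups were equal. Beside these values, the 13 leukocyte marker contigs summed to 98.4 to 200 CPM in control and 58.2 to 142 CPM in gold-fed livers, with 12 of 13 lower, 8 of them at an unadjusted p under 0.05, and none called. The 12 erythrocyte contigs summed to 2200 to 8767 and 851 to 4772 CPM, with 12 of 12 lower and none called. Their part in the result was not tested.

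In brain the picture was of small lower values. edgeR called 0 of 93 members, beside 0.00201% of all contigs, and DESeq2 called 1, beside 0.366%. At an unadjusted p under 0.05, 17 members were lower and 1 was higher, where 4.39% of all contigs were lower and 3.37% higher. The 17 comprised 9 contigs of complex V, 7 of complex I and 1 of COX6A. They share labels and libraries, so they are not 17 separate observations. Summed by label, 13 of 45 labels were lower at that threshold and none was called. The share of all summed labels is not given here, so the count of labels is not read as particular to the members. The median over members was -0.12 against 0.00 over all contigs.

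The member that DESeq2 called was ndufb4.2.2, an accessory subunit of the complex I membrane arm with few reads (5 to 132 per brain library). It was at 0.05 to 0.80 CPM (median 0.42) in control brain and 0.02 to 0.17 CPM (median 0.07) in gold-fed brain, and the groups overlapped because the brains of control eels 3 and 4 were as low as the gold-fed brains. The DESeq2 log2 fold change was -2.40 (adjusted p = 0.0365), and edgeR gave -2.39 ± 0.62 (adjusted p = 0.579). The other copy, ndufb4.1.2, held 61.3% ± 17.1 (SD) of the label's level in control brain and 81.4% ± 10.8 in gold-fed brain.

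NDUFA6, a Q module accessory subunit, was at 1.20 to 1.63 CPM (median 1.401) in control and 0.79 to 1.17 CPM (median 1.04) in gold-fed brain, with -0.49 ± 0.14 (edgeR adjusted p = 0.579). It was the only member whose groups did not overlap in brain, and in liver there was none; 0.254% of all contigs were lower in every gold-fed than in every control brain. atp5ib.2.2 was at 13.02 to 20.2 CPM (median 14.6) against 9.04 to 13.6 CPM (median 10.9), with -0.48 ± 0.14 (edgeR adjusted p = 0.579), and these overlapped, as in liver.

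ndufa2.2.2 (-0.65 ± 0.18) and ATPA (-0.78 ± 0.25) were the remaining lower values of smallest p in brain. On the higher side were sdhaf1.3.3 (0.22 ± 0.10), atp5f1.3.3 (2.21 ± 1.03), ndufc1.2.2 (0.27 ± 0.15), atp5c1.4.5 (0.06 ± 0.06) and atp5ib.1.2 (0.21 ± 0.30), with adjusted p-values of 0.639 to 0.877. Without the brain of gold-fed eel 10, atp5f1.3.3 was 1.39 and atp5ib.1.2 was 0.03, and without that of control eel 2 atp5c1.4.5 was 0.04. Of the core contigs, ATPB.1.2 had 0.03 ± 0.05 and SDHA -0.01 ± 0.08. Beside these values, the gold-fed brains had more reads (79.3 to 116 M against 66.0 to 85.3 M), all 13 leukocyte contigs were higher (42.5 to 208 CPM summed against 61.4 to 151) and all 12 erythrocyte contigs lower (213 to 864 against 274 to 675), with 0 leukocyte and 2 erythrocyte contigs at an unadjusted p under 0.05 and none called. Their part in the result was not tested.

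The mean log2(CPM + 0.5) over all 93 members was 2.49 to 2.69 in control brain and 2.46 to 2.59 in gold-fed brain, and 3.616 to 4.496 in control liver and 3.77 to 4.01 in gold-fed liver. The groups overlapped in both tissues. In brain the overlap came from control eel 3, whose value was 2.49. That library also stood apart in the hepatocyte markers, which summed to 438 CPM against 48.8 to 54.7 CPM in the other control brains; their part in its low member values was not tested. Without it the median of the members relative to the median contig was -0.18 in place of -0.12, and edgeR called none. In that fit 22 members were lower at an unadjusted p under 0.05 in place of 17, and 4.46% of all contigs in place of 4.39%. Other left-out brains moved the count of 17 both ways. It was 22 without gold-fed eel 8 (4.19% of all contigs lower at that p) and 13 without control eel 5 (3.67%). It was 12 without gold-fed eel 11 or gold-fed eel 12 (3.96% for each). Without eel 3, 71 members were higher in liver and 1 higher in brain in the control eels. The share of all contigs called in that fit is not given here.

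**Figure D4:**
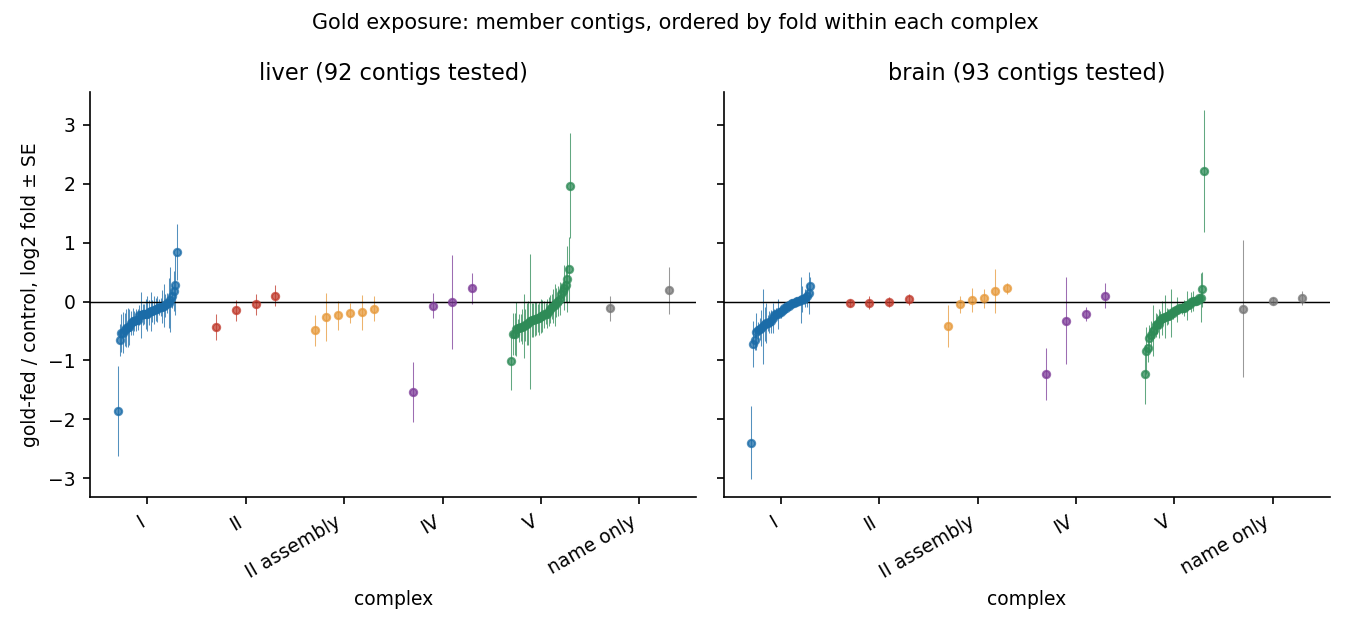
Log2 fold change of gold-fed against control eels (y axis, ± SE) for each member in liver (left) and brain (right), ordered by value within each complex (x axis). Most points lie slightly below 0 in both panels, no member was called by edgeR, and the points farthest from 0 are ndufb4.2.2, COX6A.1.4 and atp5f1.3.3.

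Whether the gold response differed between the tissues was tested as an interaction over all 24 libraries. edgeR called 0 of 93 members, beside 0.00595% of all contigs, and DESeq2 called 0, beside 0.271%. At an unadjusted p under 0.05, 1 member had a higher response in liver and 0 a lower one, where the shares of all contigs were 3.27% and 3.5%. That member was ATPA (0.79 ± 0.38, adjusted p = 0.734). The next on the higher side were atp5j.2.7 (0.35 ± 0.18), ndufv3.1.3 (0.71 ± 0.53), ndufs7.3.4 (0.24 ± 0.19) and atp5c1.1.5 (0.78 ± 0.66). Without eel 10 ndufv3.1.3 was 0.24, and without eel 12 atp5c1.1.5 was 0.11. On the lower side were ndufc1.2.2 (-0.39 ± 0.21), SDHB (-0.45 ± 0.25), sdhaf1.3.3 (-0.38 ± 0.23) and ndufs4.1.2 (-0.28 ± 0.18). Beside these values, all 13 leukocyte contigs had a lower response in liver than in brain, 6 of them at an unadjusted p under 0.05 and none called, and their part in the result was not tested.

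Some contigs had levels that followed the individual eel in both tissues, among them COX6A.1.4 and atp5f1.3.3, which were also among the larger exposure values; the 4 described here were chosen after their values were seen. COX6A.1.4 was highest in eel 1 in both tissues, at 5.45 CPM in brain and 160 CPM in liver, while the other 11 eels had 0.58 to 1.73 CPM in brain and 11.0 to 55.1 CPM in liver. COX6A.4.4 was low in eels 5 to 8, at 0.08 to 0.48 CPM in brain and 1.36 to 9.19 CPM in liver, and higher in the other 8, at 0.86 to 2.67 CPM and 27.2 to 68.2 CPM. Eels 5 and 6 were controls and eels 7 and 8 gold-fed, so this split crossed the exposure groups.

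atp5f1.3.3 was high in the gold-fed eels 7, 10 and 11, at 1.01, 3.38 and 1.78 CPM in brain and 14.9, 18.98 and 12.5 CPM in liver. The gold-fed eels 8, 9 and 12 had 0.06 to 0.11 CPM in brain and 0.48 to 0.74 CPM in liver, at the low end of the controls. ndufb3, a membrane arm subunit of complex I, was lowest in eel 9 in both tissues, at 0.86 CPM in brain and 2.87 CPM in liver, against 2.23 to 6.81 and 6.61 to 17.2 CPM in the other eels.

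**Figure D5:**
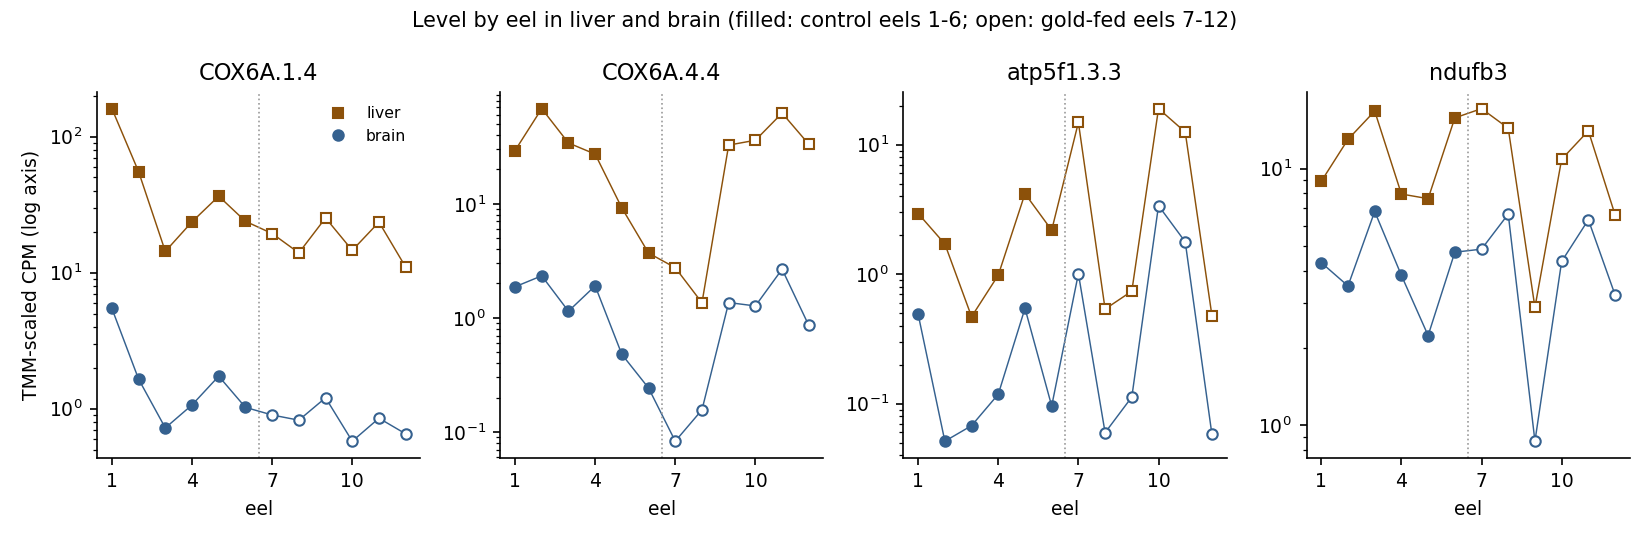
TMM-scaled CPM (log axis, each panel with its own scale) of 4 contigs by eel (x axis) in liver (squares) and brain (circles); filled symbols are control eels 1 to 6 and open symbols gold-fed eels 7 to 12. Brain and liver of the same eel rise and dip together: eel 1 is high for COX6A.1.4, eels 5 to 8 are low for COX6A.4.4, eels 7, 10 and 11 are high for atp5f1.3.3, and eel 9 is low for ndufb3.

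As a description over 12 eels, the deviation from the group mean in brain and that in liver had r = 0.96 for COX6A.1.4, 0.94 for COX6A.4.4, 0.93 for atp5f1.3.3 and 0.90 for ndufb3. Over the 88 members with a mean of at least 1 CPM the median r was 0.44, and 8 (9.09%) were above 0.9. Over the 40048 contigs of that level the median was 0.28 and 3.29% were above 0.9. Among the 8 members above 0.9, ndufb3 was the only one that did not share its label with another contig. The others were copies of a label, whose reads may be split between contigs by the counting. The part of such copies in the higher share was not tested, so that share is not read as particular to the members.

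Copies of a label could also move against each other across eels. ndufs6.2.3 and ndufs6.3.3, contigs of an N module accessory subunit, had r = -0.77 over the deviations of 24 libraries. In eel 5 the first was at 12.7 CPM and the second at 1.26 CPM in brain, and in eel 1 they were at 4.47 and 6.499 CPM. Their label sum was steadier, at 11.8 to 14.3 CPM in control brain and 10.4 to 13.8 CPM in gold-fed brain. The contigs atp5j.3.7 and atp5j.5.7 had r = -0.75.

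The members varied more among control livers than in any other group. Over the 69 members with at least 5 CPM the median SD of log2(CPM + 0.5) was 0.50 in control liver, 0.29 in gold-fed liver, 0.18 in control brain and 0.15 in gold-fed brain. Over all 20783 contigs of that level it was 0.36, 0.36, 0.19 and 0.21. Control livers 2 and 6 had the highest means over the members (4.496 and 4.37) and control livers 3 and 4 the lowest (3.62 and 3.76). Eel 2 held the highest control liver value for 47 of the 93 members and eel 3 the lowest for 45. The same shares over all contigs are not given here, and 70 of the 93 contigs share a label. These counts are therefore not read as particular to the members.

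The TMM factors of control livers 2 and 6 were the lowest of the group (0.42 each), and their share of reads on members was 0.37 and 0.30%, against 0.16% in eel 3 and 0.26% in eel 4. The part of the scaling in this spread was not tested. In liver the members moved together: the median r between contigs of different labels was 0.42 over 12 libraries, and 0.04 between members and the other contigs of that level. In brain these values were 0.07 and 0.00. These are descriptions, and the values of a pair share libraries and scaling.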

How the data were processed

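The authors deposited unnormalized counts of reads for each contig in 24 libraries; the values are whole numbers and library sums differ. The submitters' processing notes name BWA 0.7.12 and SAMtools 1.1 as tools. How contigs were assembled and annotated, the counting rule and the strand setting are not given in the sources read here. RNA was isolated with a column kit and libraries were made with a TruSeq RNA kit, per the labels' protocols. Labels were read without a leading Cit and without the copy suffix; 70 of 93 member contigs shared a label, and 26 of 45 labels equalled a symbol of the RefSeq gene table of the species (assembly fAngAng1.pri). No sequence or coordinate was used. Members and lists were chosen with earlier results of these data known.

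Tests used edgeR 4.0.16 in R 4.3.3 (quasi-likelihood test; scaling by TMM; low counts removed by filterByExpr within groups), fitted on all contigs with Benjamini-Hochberg adjustment over all contigs tested, two-sided, threshold 0.05. Standard errors were derived from the F statistic. Each tissue was fitted apart for exposure, each set of eels apart for tissue, and all libraries together for the interaction. The procedure was tested on simulated counts. Alternatives were DESeq2 1.42.0, RLE factors, library totals, no count filter, counts summed by label, a joint fit, the eel as replicate block and leaving out each library. Brain and liver libraries carry the number of the same eel, per the labels, and pair as such: deviations from group means correlated at 0.299 to 0.505 over 40048 contigs. Among the eels of its own exposure group, each eel matched best with itself in 12 of 12 cases. No libraries were duplicates (lowest chi-square per degree of freedom 66.7).

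Contigs were named by rule: for exposure and the interaction, the 5 members of smallest p in each direction; for tissue, up to 8 of largest change in each direction among members of at least 10 CPM called in both sets of eels; core members; and families with tissue isoforms in mammals. Results of 1 item that the rule names are not reported here. Other contigs were named after their values were seen. Marker lists covered hepatocytes, neurons, glia, erythrocytes, leukocytes and muscle. Pathway lists covered the citric acid cycle, mitochondrially encoded subunits, electron carriers, assembly factors, biogenesis and subunits under entry names.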

Additional observations from a re-analysis of the deposited data

Results flagged for a closer look

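Within groups of 6 eels, 148 sets of values were checked for a lone high or low eel, and chance marks about 1 in 20 such sets; 11 were marked. ndufa4l2 had 1 high eel in 3 groups: 0.513 CPM in the brain of control eel 6 (others 0 to 0.0854), 1.71 CPM in the liver of the same eel (others 0.0585 to 0.279) and 0.41 CPM in the brain of gold-fed eel 7 (others 0 to 0.0828). ATPA was high in the brain of gold-fed eel 10 at 0.407 CPM (others 0.176 to 0.253) and low in the liver of gold-fed eel 8 at 0.793 CPM (others 1.99 to 2.66).

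The brain of control eel 3, whose hepatocyte markers summed to 438 CPM against 48.8 to 54.7 CPM in the other control brains, stood low in 3 sets: ndufs4.1.2 at 10.6 CPM (others 13.6 to 15.1), ndufa2.2.2 at 0.58 CPM (others 0.86 to 1.02), and the mean over complex I contigs at 2.40 log2 CPM (others 2.54 to 2.63). These 3 sets are not separate, since ndufs4.1.2 and ndufa2.2.2 are among the contigs of that mean. SDHB was high in the liver of gold-fed eel 10 at 20.2 CPM (others 13.3 to 15.5). ndufb4.2.2 was high in the liver of gold-fed eel 11 at 1.62 CPM (others 0.287 to 0.532). ndufc1.2.2 was high in the brain of control eel 4 at 6.29 CPM (others 4.32 to 4.92).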

How the results depend on the processing

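The absence of exposure calls held under RLE factors, library totals, no filter, sums by label, the joint fit and each left-out library; DESeq2 called 1 member lower in brain. Tissue calls held except with library totals, where 16 members were higher in liver and 49 higher in brain in control eels, and 19 and 48 in gold-fed eels. With library totals the median contig itself moved by -2.15 in control and -2.01 in gold-fed eels. The share of all contigs called with that scaling is not given here. Sums by label gave 37 and 38 labels higher in liver, since fewer features were tested. DESeq2 gave 2 members higher in brain in control eels. Without each eel in turn, members higher in liver numbered 68 to 73 in control and 68 to 76 in gold-fed eels, and those higher in brain in control eels 1 to 2 (2 without eel 4). In the paired fit with the eel as replicate block, 77 members were higher in liver and 1 in brain in control eels, and 78 and 1 in gold-fed eels. In that fit ndufa4l2 became called (2.30), no other named contig changed its call, and 0 members were called in the interaction. The shares called over all summed labels, and over all contigs without each eel or in the paired fit, are not given here. The changes in these counts are therefore not read as particular to the members.

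Signs turned for single contigs. With library totals the liver to brain value was -2.01 for SDHA and -1.81 for SDHB in control eels, and -1.79 for SDHA and -0.23 for ndufa4l2 in gold-fed eels. The gold response of a label sum took the sign opposite to that of the copy for several named contigs. In liver it was -0.19 (atp5f1.3.3), -0.27 (ndufv3.1.3), -0.35 (atp5c1.1.5) and -0.18 (atp5j.2.7 and atp5j.5.7). In brain it was -0.006 (atp5f1.3.3) and -0.37 (atp5ib.1.2). In the interaction it was -0.21 (ndufv3.1.3), -0.05 (ndufs7.3.4) and -0.39 (atp5c1.1.5). A sum also holds the reads of the other copies of its label. With each library left out, atp5c1.1.5 in liver ran from -0.12 to 0.96 and SDHB between tissues of gold-fed eels from -0.169 to 0.008. The median of the members relative to the median contig ran from -0.31 to -0.10 in liver, from -0.18 to -0.10 in brain and from -0.16 to 0.02 in the interaction. Contigs under about 1 CPM (ATPA, ndufb4.2.2, ndufa4l2) rest on few reads.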

Other observations

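Around the complexes, the transcripts of the electron carriers were divided between tissues under TMM. All 3 contigs of CYC, the entry name of cytochrome c, were higher in brain (log2 fold change of -1.82, -1.52 and -1.36 in control and -2.09, -2.08 and -2.11 in gold-fed eels). Both etfb contigs, a subunit of the flavoprotein that collects electrons from fatty acid oxidation, were higher in liver (2.92 and 3.00 in control eels), as were etfa.1.2 (3.67) and etfa.2.2 (1.84). Of the 14 contigs of this list, 6 were called higher in liver and 3 in brain in control eels. Beside this, 34.9% of all contigs were called higher in liver and 40.1% higher in brain. The counts are therefore not read as particular to this list. ucp1, an uncoupling protein, was at 1.74 CPM in control brain and 3508 CPM in control liver (10.98), with a gold response of 0.00 in liver and -0.03 in brain.

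Of 18 tested assembly factor contigs, 11 were called higher in liver and 3 in brain in control eels, beside 34.9% and 40.1% of all contigs. foxred1 (2.86), a complex I factor, and both contigs of UQCC2 (2.37 and 2.53), a complex III factor, were among the former; ndufaf5 (-2.11), ecsit (-1.42) and atpaf2 (-0.79), a complex V factor, were the latter. Among 22 contigs of mitochondrial biogenesis, 12 were higher in liver, among them tfam.1.2 (1.13) and tfam.2.2 (1.39), the factor that packages mitochondrial DNA. Another 7 were higher in brain, among them esrrg (-4.08) and esrrb.1.2 (-5.18). Beside the same shares of all contigs, the biogenesis counts are not read as particular to that list. With library totals the median contig moves by -2.15, so that values above 0 and under about 2 turn in sign.

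Of 4 contigs under entry names of subunits outside the member rule, COX41 (1.99), ndub7 (1.17) and nduc2 (10.46) were higher in liver in control eels, and NU5M (0.33) was not called. nduc2 stood at 29.2 CPM in control brain and 41060 CPM in control liver; whether this label names the transcript correctly was not tested. No contig of these lists was called by edgeR for gold exposure, and the 2 glia contigs, which were higher in brain in control eels, were not called for it either.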
